A study of Mus musculus with 6 samples.

Results

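Cytochrome P450 genes of families 1 to 3 were compared between livers with and without the mitochondrial selenoprotein SelO. All rows of the deposited gene table whose symbol begins with Cyp, a family number from 1 to 3 and a letter were taken. This gave 53 of the 16140 genes in the table: 3 genes of family 1, 41 of family 2 and 9 of family 3. The study sequenced poly(A)-enriched RNA of mouse liver in bulk. The 3 control libraries carried the floxed Selenoo gene (Selofl/fl) with no Cre. The 3 knockout libraries carried the same floxed alleles with Cre under the albumin promoter (Selofl/fl Alb-Cre), which is active in hepatocytes. All mice were on a normal diet, and no other treatment is labelled; age and sex are not given. An effect of Cre cannot be told apart from an effect of losing Selenoo, and since the labels name no separate animals, p-values measure only the spread between these libraries.

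The enzymes encoded by these genes are haem proteins of the endoplasmic reticulum. They insert an oxygen atom into drugs, plant compounds, steroids, fatty acids and bile acids, with electrons passed on by P450 oxidoreductase. Families 1, 2 and 3 hold most of the drug-metabolizing P450 enzymes of hepatocytes. Their transcription answers to ligand-activated factors, chiefly AHR for Cyp1a1 and Cyp1a2, CAR for Cyp2b10 and PXR for Cyp3a11, and several mouse members differ between the sexes. In the mouse the subfamilies form tandem clusters of copies that are close in sequence, so reads of one copy can be assigned to another.

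Near-identical neighbours bear on several of the results below, so 250 bases before the promoter entry's start are shown for 3 pairs of copies. They come from RefSeq on GRCm38.p6 (46 of the 53 members matched a promoter entry). These starts differ from the gene starts in the deposited table. The windows of Cyp2a4 and Cyp2a5 lie inside the gene extents given there, which begin at 26304421 and 26832560. Those of Cyp2b9, Cyp2b13, Cyp3a25 and Cyp3a59 run partly into the extents of their genes. Cyp2a4 and Cyp2a5 had start regions with 97.6% identity but different patterns across libraries. In Cyp2b9 and Cyp2b13 the windows were 99.2% identical, yet RNA of Cyp2b13 was almost absent. Cyp3a25 and Cyp3a59, at 94.8%, were both higher in every knockout library than in any control, as were 13.3% of all tested genes. Each is written from its 5′ end, with capitals at the bases that differ from the other copy in a global alignment.
Cyp2a4, chr7:26306942-26307191, plus strand: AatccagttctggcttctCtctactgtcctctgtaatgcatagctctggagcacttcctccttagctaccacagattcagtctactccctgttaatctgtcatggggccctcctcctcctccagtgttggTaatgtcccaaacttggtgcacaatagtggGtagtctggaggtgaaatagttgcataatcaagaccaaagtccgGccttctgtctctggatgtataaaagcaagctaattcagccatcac
Cyp2a5, chr7:26835089-26835338, plus strand: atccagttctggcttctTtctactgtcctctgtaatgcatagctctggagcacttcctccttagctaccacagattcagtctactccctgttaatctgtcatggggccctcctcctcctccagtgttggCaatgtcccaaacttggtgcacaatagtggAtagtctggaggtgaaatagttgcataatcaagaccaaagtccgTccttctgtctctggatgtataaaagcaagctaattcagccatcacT
Cyp2b9, chr7:26173159-26173408, plus strand: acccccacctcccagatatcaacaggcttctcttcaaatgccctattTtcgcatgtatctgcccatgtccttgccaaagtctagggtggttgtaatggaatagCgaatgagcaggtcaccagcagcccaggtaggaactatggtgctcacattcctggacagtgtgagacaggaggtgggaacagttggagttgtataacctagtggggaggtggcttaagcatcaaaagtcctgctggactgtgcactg
Cyp2b13, chr7:26061245-26061494, plus strand: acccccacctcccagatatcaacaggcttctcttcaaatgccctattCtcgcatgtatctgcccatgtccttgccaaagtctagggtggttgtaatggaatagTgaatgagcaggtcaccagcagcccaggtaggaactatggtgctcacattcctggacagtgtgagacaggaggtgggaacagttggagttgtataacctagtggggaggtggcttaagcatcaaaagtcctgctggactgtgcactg
Cyp3a25, chr5:146009619-146009868, minus strand: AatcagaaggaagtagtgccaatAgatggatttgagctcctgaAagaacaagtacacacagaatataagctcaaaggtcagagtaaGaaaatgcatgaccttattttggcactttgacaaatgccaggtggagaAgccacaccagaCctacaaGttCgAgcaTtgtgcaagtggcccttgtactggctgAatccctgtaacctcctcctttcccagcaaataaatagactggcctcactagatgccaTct
Cyp3a59, chr5:146079008-146079257, plus strand: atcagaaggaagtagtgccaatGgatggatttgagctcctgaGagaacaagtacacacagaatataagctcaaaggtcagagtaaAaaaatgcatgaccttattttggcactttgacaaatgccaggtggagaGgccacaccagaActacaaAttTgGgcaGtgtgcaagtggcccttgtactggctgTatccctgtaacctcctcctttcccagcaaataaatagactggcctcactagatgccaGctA

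The letters TATAAA, searched on both strands, lay in this window of 25 of 46 members (54.3%) and of 12.4% of all 32851 start windows in the table. Both Cyp2a4 and Cyp2a5 hold them, and neither the Cyp2b pair nor the Cyp3a pair does. The nuclear receptor half-site AGGTCA was present in 12 of 46 members (26.1%, against 14.0% of all windows), among them both members of the Cyp2b and of the Cyp3a pair. The AHR core GCGTG was present in 6 members (13.0%, against 28.2%), including Cyp1a1 and Cyp1b1. No member's window held TTCNNNGAA, the core recognized by STAT5, against 7.02% of all windows. A match is only a match of letters in this window.

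The counts of the libraries summed to between 15550287 and 18680196. Selenoo itself (chromosome 15) had counts of 1413, 1630 and 1852 in controls and 117, 163 and 135 in knockouts, lower by a log2 fold change of -3.56 ± 0.17 (SE; adjusted p = 4.64e-05, edgeR quasi-likelihood test). The 10 hepatocyte markers summed to between 168462.7 and 212433.5 CPM (counts scaled to library size), and kidney markers to at most 0.743 CPM in any library. Lymphocyte markers summed to between 14.8 and 19.8 CPM in controls and between 7.39 and 10.6 CPM in knockouts, and their part in any result here was not tested. Across genes, a library's deviation from the mean log level was ranked against transcript length, and control replicate 3 stood with the knockouts (rho of 0.271, against -0.295 and -0.219 in control replicates 1 and 2 and 0.085 to 0.265 in knockouts).

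Measured per length, in FPKM (fragments scaled to transcript length and library size), 21 members had a mean of at least 100 over the 6 libraries, 17 lay between 1 and 100 and 15 were under 1. Cyp2e1, the pericentral enzyme that oxidizes ethanol and paracetamol, led with a mean of 4948 FPKM and a range of 4188 to 5473. Next came Cyp3a11, the main PXR target (1264 FPKM, range 845 to 1656), Cyp2c29, an epoxygenase of arachidonic acid (949 FPKM, range 781 to 1214), Cyp2d9, a testosterone hydroxylase higher in males (929 FPKM, range 628 to 1194), Cyp2d26 (906 FPKM) and Cyp2f2, the periportal enzyme known for activating naphthalene (822 FPKM, range 437 to 1261). Cyp2e1 lay above all others in all libraries, while the neighbours from Cyp3a11 to Cyp2f2 overlapped in range. By summed TPM (transcript share scaled to a fixed total), Cyp2e1 made up 34.2% of the RNA of these families, subfamily 2c 19.9%, 2d 19.0%, 3a 10.2%, 2a 6.01%, 2f 5.66% and 1a 3.40%. All 53 members together took between 1.48% and 1.83% of TPM in controls and between 1.77% and 1.95% in knockouts, and these ranges overlap.

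**Figure D1:**
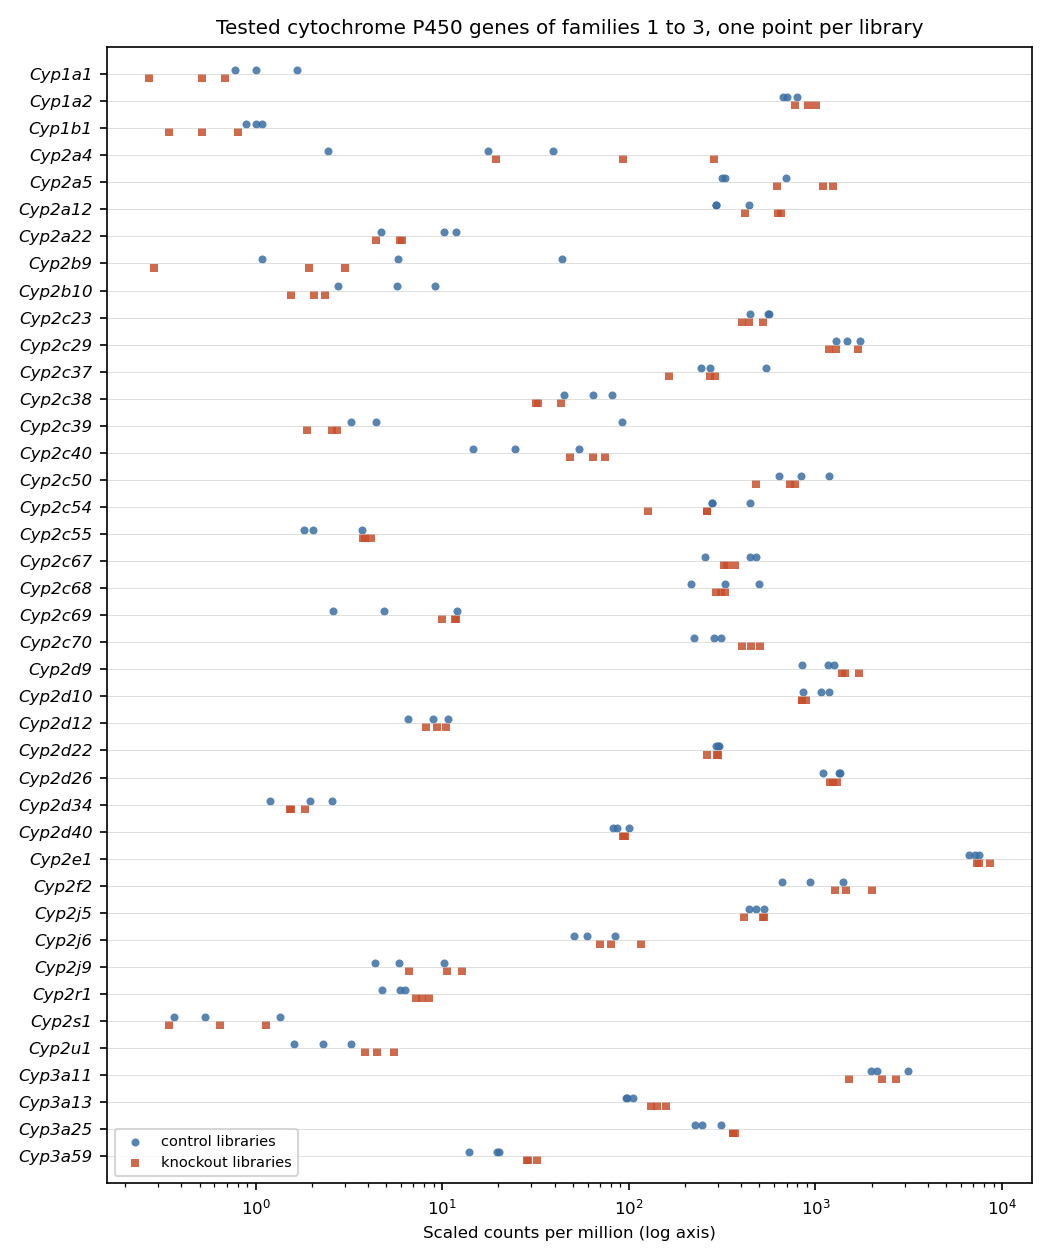
CPM (log axis) of the 41 tested members in each of the 3 control (circles) and 3 knockout (squares) libraries. Cyp2e1 is the highest gene in every library, and Cyp2a4, Cyp2b9 and Cyp2c39 have the widest spread within a group.

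Of the 53 members, 41 had enough counts to be tested, and none was called at 0.05 after adjustment (edgeR quasi-likelihood, fitted over 12173 genes, of which 1.49% were called). At an unadjusted p under 0.05, 19 of the 41 passed (46.3%), where 18.5% of all tested genes passed. Of these, 13 were higher in knockout livers (9.27% of all tested genes) and 6 were lower (9.26%). The groups did not overlap for 14 members (34.1%, against 25.2% of all tested genes), with 8 higher (13.3% of all) and 6 lower (11.9% of all). Log2 fold changes were positive for 21 members and negative for 20, with a median of 0.018 against -0.018 over all tested genes. The median size of the change, regardless of sign, was 0.518 on the log2 scale against 0.218 over all tested genes, and the median standard error was 0.248 against 0.180. Thus both the differences and their errors were larger among these genes than over all tested genes. In the 26 tested genes of other P450 families the same medians were 0.524 and 0.276. The larger size was therefore not particular to families 1 to 3, and its cause was not tested. Among the tested members, 4 passed the filter on low counts with fewer than 3 libraries above it in at least 1 group (Cyp1a1, Cyp1b1, Cyp2b9 and Cyp2s1). Of these, Cyp1a1 and Cyp2b9 are among the 19 members above, and Cyp1a1 and Cyp1b1 among the 14. Cyp1a1, Cyp1b1 and Cyp2b9 were above it in all 3 controls and in 1, 1 and 2 knockouts. No test was run over the members, and they were chosen with earlier results of these data known. The counts of members above are therefore not support for a difference.

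The closest to the threshold were Cyp3a59 (adjusted p = 0.0606), Cyp2c70 (0.0663), Cyp2b10 (0.0859), Cyp3a13 (0.0888) and Cyp2c38 (0.0957) in edgeR's test, the 5 members that passed at an adjusted p of 0.1, as 4.21% of tested genes did. DESeq2's Wald test called these 5 and also Cyp2a5 and Cyp2a12, 7 of 41 members, where it called 5.26% of 12057 genes. Of these 7, 5 were higher (3.08% of all) and 2 lower (2.18%). Its 41 were not the same members as those of edgeR's test. DESeq2 gave Cyp2c39 no adjusted p, and Cyp2g1, which edgeR's filter left out, had 0.146 (DESeq2 Wald test). The authors' deposited table lists the same 7 members with a q value under 0.05, as it does 3.47% of all its genes, with q values between 0.00158 (Cyp2c70) and 0.0361 (Cyp2a12). The edgeR count depended on single libraries: it was 7 of 43 without control replicate 3 (5.42% of all genes) and 4 of 42 without control replicate 1 (2.93%). It was 3 of 53 with no filter on low counts (2.05% of all genes called) and 2 of 41 with the length trend removed (2.13%). It was 0 without control replicate 2 (0.627% of all genes called) and without knockout replicates 1, 2 and 3 (0.477%, 0.348% and 0.485%). It was also 0 with DESeq2's size factors in edgeR (1.47%), upper-quartile scaling (1.43%), a filter of 1 CPM in 3 libraries (1.55%), a replicate block (0.715%), limma-voom (1.36%) and limma on log2 FPKM with 1 or 0.1 added (0.904% and 1.04%).

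**Figure D2:**
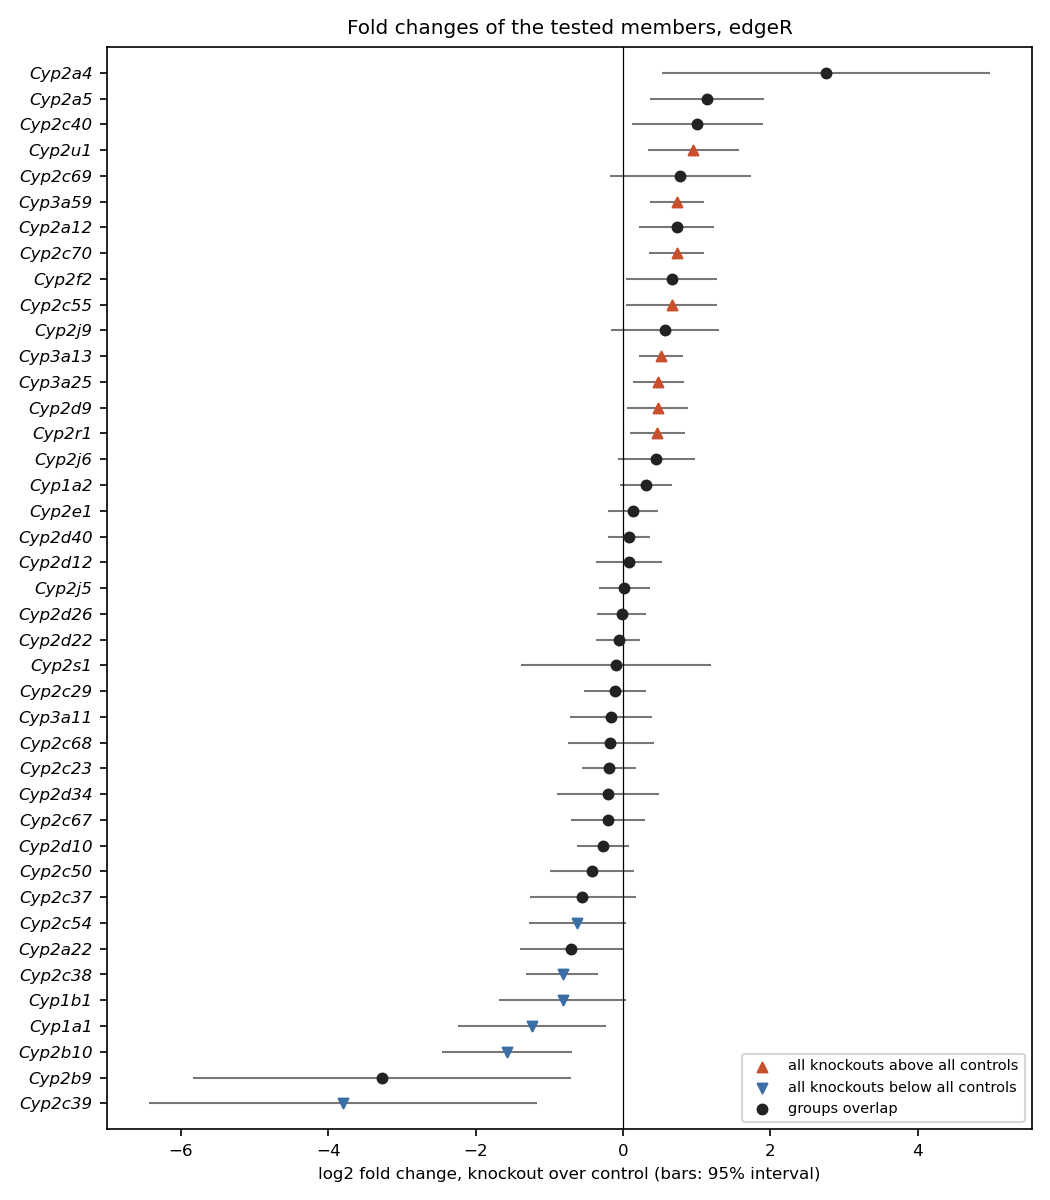
Log2 fold change of each tested member, knockout over control, with its 95% interval from edgeR's fit (bars), and with symbols for whether all knockout libraries lay above or below all controls. Cyp2a4, Cyp2b9 and Cyp2c39 have the widest intervals.

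In family 1, Cyp1a2 and Cyp1a1 lie next to each other on chromosome 9 and are both AHR targets. Cyp1a2 (NCBI Gene 13077, 57676937 to 57683655), the constitutive liver enzyme, had 668, 794 and 702 CPM in controls and 776, 906 and 1005 CPM in knockouts. The ranges overlapped, with a log2 fold change of 0.31 ± 0.15 (SE; 95% interval -0.04 to 0.66). Cyp1a1, which is low in liver without an inducer, had counts of 15, 32 and 15 in controls and 5, 9 and 12 in knockouts, lower in every knockout library (log2 fold change of -1.23 ± 0.45, adjusted p = 0.191, edgeR). Cyp1b1 on chromosome 17, an enzyme mainly of tissues other than liver, had 15, 21 and 17 counts against 15, 9 and 6. In CPM its groups did not overlap, but the interval of its log2 fold change ran from -1.68 to 0.04. Cyp1a1 and Cyp1b1 were above the filter on low counts in all 3 controls but in only 1 knockout each. Their lower values in knockouts are therefore not support for a difference. Of 6 other tested AHR targets, none passed the threshold (median log2 fold change of -0.042).

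Among the subfamilies with a summed level over 100 CPM, 2a had the largest ratio between groups. Its 4 members summed to 638, 626 and 1186 CPM in controls and to 1332, 1912 and 1825 CPM in knockouts, a ratio of group means of 2.07. The lowest knockout was above the highest control, and control replicate 3 was nearer to the knockouts than to the other controls. Cyp2a5 (NCBI Gene 13087, chromosome 7, 26832560 to 26843264), the coumarin hydroxylase, carried most of this sum. It had 316, 327 and 697 CPM in controls and 625, 1234 and 1099 CPM in knockouts, so that control replicate 3 exceeded knockout replicate 1. The log2 fold change was 1.14 ± 0.34, with an interval of 0.37 to 1.92 (adjusted p = 0.128, edgeR). Without control replicate 3 it was 1.62 (adjusted p = 0.0192, edgeR), and with DESeq2 the adjusted p was 0.00943. With any other single library left out, edgeR's adjusted p was 0.162 to 0.369.

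Cyp2a4, a steroid hydroxylase usually higher in females, is singled out here after its values were seen. It had 17.6, 2.43 and 39.0 CPM in controls and 286, 19.4 and 93.4 CPM in knockouts, a 16.1-fold range within controls and a 14.8-fold range within knockouts. Knockout replicate 2 was below control replicate 3, and the log2 fold change of 2.75 ± 0.99 had an interval from 0.53 to 4.98 (adjusted p = 0.189, edgeR). It was 1.52 without knockout replicate 1 (adjusted p = 0.509, edgeR) and 3.76 without control replicate 3 (0.0881). Of the 50-base windows of its longest coding transcript, 36.1% also occur in Cyp2a5, so the division of reads between these genes is uncertain. Their sum does not depend on that division: it was 333, 330 and 736 CPM in controls and 911, 1253 and 1193 CPM in knockouts, with no overlap. Each gene alone overlapped, and the sum includes a gene singled out after its values were seen. Among single tested genes, 25.2% had groups that did not overlap, so the sum is a description and not support for a difference. Knockout replicate 1, the lowest knockout for Cyp2a5, was the highest library for Cyp2a4.

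Cyp2a12 (NCBI Gene 13085, chromosome 7, 27029090 to 27036818) had 295, 292 and 438 CPM in controls against 417, 652 and 626 CPM in knockouts. Here too control replicate 3 lay above knockout replicate 1. The log2 fold change was 0.73 ± 0.22 (adjusted p = 0.132, edgeR). The adjusted p was 0.0273 with DESeq2 and 0.0387 in edgeR's test without control replicate 3. With any other single library left out, edgeR's adjusted p was 0.153 to 0.39. Its low neighbour Cyp2a22, which shares 25.7% of its windows with Cyp2a12, went the other way, from 8.93 ± 3.74 to 5.48 ± 0.933 CPM (SD, n = 3), with overlapping groups. The log2 fold change, -0.70 ± 0.31, became -0.43 when control replicate 3 was left out.

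Subfamily 2b was low in all libraries and lower in knockouts. Cyp2b10 (NCBI Gene 13088, chromosome 7, 25897658 to 25926624), the standard target gene of CAR, had 41, 111 and 177 counts in controls and 44, 27 and 36 in knockouts. That is 2.75, 5.74 and 9.18 CPM against 2.36, 1.54 and 2.05 CPM, so every knockout lay below every control, control replicate 1 only just. The log2 fold change was -1.58 ± 0.39 (interval -2.46 to -0.69). The adjusted p of 0.0859 (edgeR) became 0.0137 without control replicate 1 and 0.00546 with DESeq2. With any other single library left out, edgeR's adjusted p was 0.0889 to 0.282, and it was 0.15 with the replicate block. Other CAR and PXR targets were not called (0 of 17 tested, 2 higher and 2 lower at an unadjusted p under 0.05; median log2 fold change of -0.066).

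Cyp2b9, a member higher in females, had 5.77, 1.09 and 43.9 CPM in controls and 3.01, 0.286 and 1.93 CPM in knockouts. Control replicate 3 stood alone, the groups overlapped, and leaving it out took the log2 fold change from -3.27 ± 1.14 to -0.92. Cyp2b13, whose start region differs from that of Cyp2b9 at 2 of 250 bases as printed above, had 1 count in all 6 libraries together and was not tested. Its transcript shares 10.8% of its windows with Cyp2b9, so most of its length could be told apart.

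**Figure D3:**
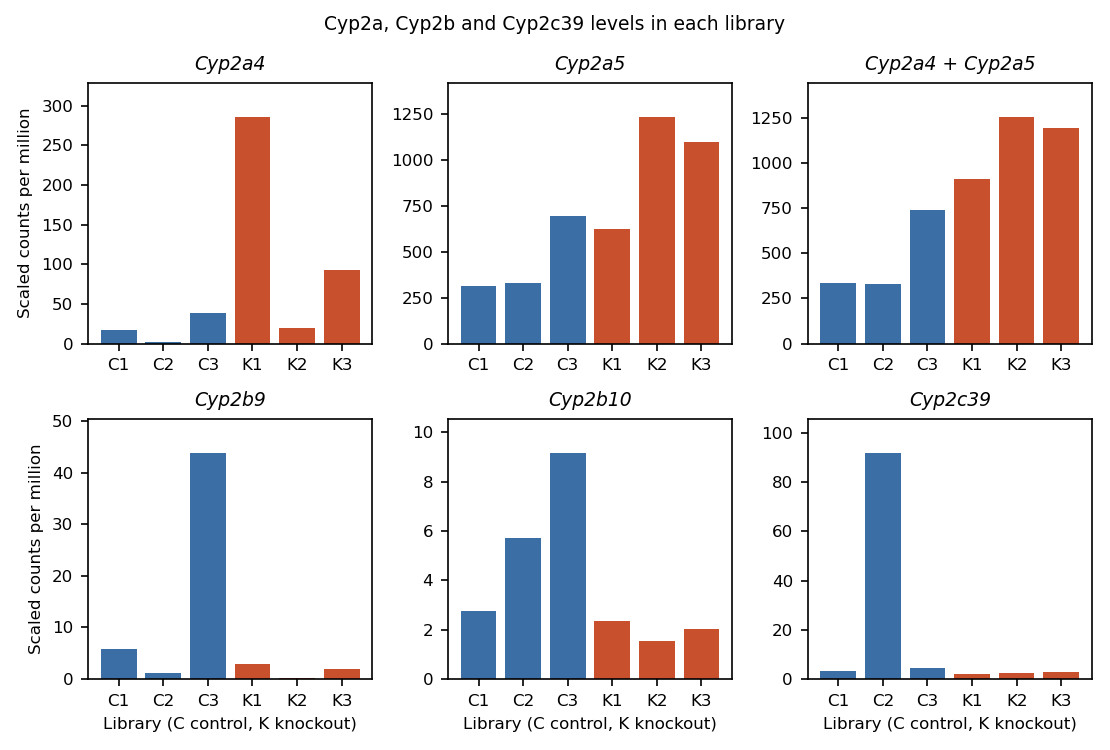
CPM of Cyp2a4, Cyp2a5, their sum, Cyp2b9, Cyp2b10 and Cyp2c39 in each library (C, control; K, knockout), each panel on its own linear axis from 0. Cyp2a4 and Cyp2a5 each overlap between groups and their sum does not, while Cyp2b9 and Cyp2c39 are each high in 1 control library.

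The other members of the chromosome 7 cluster are Cyp2f2, Cyp2s1 and Cyp2g1. Cyp2f2 (NCBI Gene 13107, 27119955 to 27133660) had 932, 1400 and 665 CPM in controls and 1271, 2020 and 1448 CPM in knockouts. Control replicate 2 exceeded knockout replicate 1, and the log2 fold change was 0.66 ± 0.28 (adjusted p = 0.24, edgeR). Cyp2s1, an enzyme of epithelia outside the liver, was at 0.343 to 1.34 CPM in all libraries, with an interval of -1.39 to 1.19. Cyp2g1, known from the olfactory mucosa, was not tested, with counts of 1, 7 and 8 in controls and 10, 24 and 18 in knockouts, which do not overlap.

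Within the chromosome 7 cluster, which spans 1.33 Mb, the fold changes did not share a direction. Cyp2b10 and Cyp2b9 at one side were lower in knockouts, Cyp2a4, Cyp2a5, Cyp2a12 and Cyp2f2 were higher, and Cyp2a22 between Cyp2a5 and Cyp2a12 was lower, none of them past the threshold. Cyp2e1 lies on the same chromosome outside the cluster (NCBI Gene 13106, 140763819 to 140774990). It had 6615, 7156 and 7525 CPM in controls and 7384, 7498 and 8612 CPM in knockouts. With 98586 to 151555 counts per library, depth did not limit this comparison. The ranges overlapped, and the interval of its log2 fold change of 0.14 ± 0.15 was -0.20 to 0.48.

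**Figure D4:**
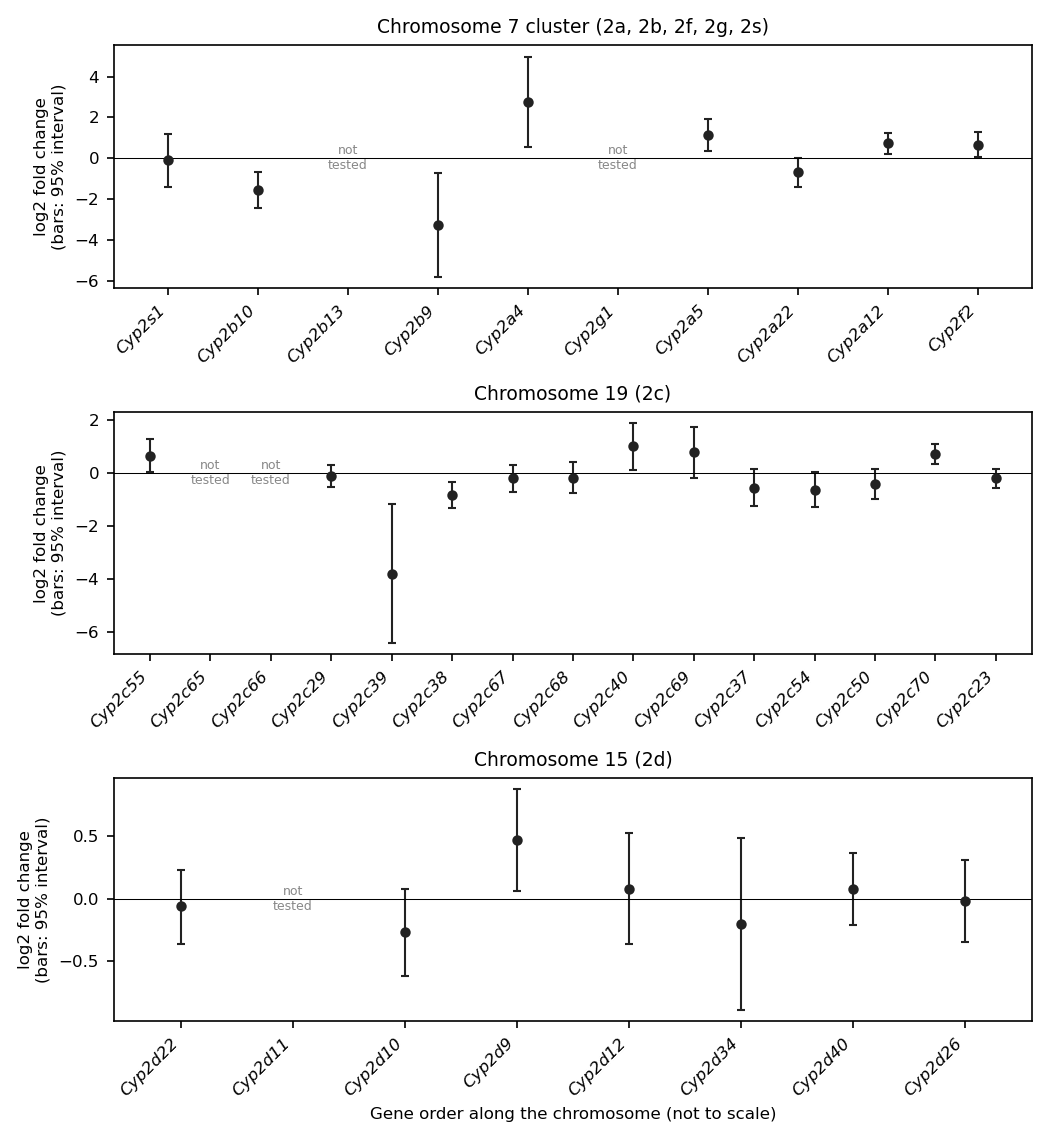
Log2 fold changes, knockout over control, in gene order along 3 clusters (points, with 95% intervals as bars; order only, not to scale; each panel has its own axis). Chromosome 7 holds members with positive and with negative values, while on chromosome 15 all intervals lie within 1 log2 unit of 0.

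In subfamily 2c on chromosome 19, 13 of 15 members were tested, 4 with a positive and 9 with a negative log2 fold change. The summed level was 5335.5, 4556 and 4334 CPM in controls and 3514, 4195.0 and 4837 CPM in knockouts, with overlap. Cyp2c70 (NCBI Gene 226105, 40153361 to 40187286) makes the muricholic acids of mouse bile from chenodeoxycholic acid. It had 223, 287 and 310 CPM in controls and 404, 450 and 501 CPM in knockouts. All knockouts were above all controls, by a log2 fold change of 0.73 ± 0.17 (interval 0.35 to 1.10, a fold of 1.65). The adjusted p was 0.0663 in edgeR's test, 0.0328 without control replicate 3, 0.0499 with the length trend removed and 0.00116 with DESeq2. With any other single library left out, edgeR's adjusted p was 0.0582 to 0.247, and it was 0.119 with the replicate block.

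Cyp2c38 (NCBI Gene 13097, 39389556 to 39463103) had 80.9, 45.1 and 64.2 CPM in controls and 43.0, 31.8 and 32.5 CPM in knockouts. Each knockout lay below each control, and the log2 fold change was -0.82 ± 0.22 (adjusted p = 0.0957, edgeR and 0.0132 with DESeq2). With 1 library left out, edgeR's adjusted p was 0.0596 to 0.323. Cyp2c39, singled out after its values were seen, had 48, 1782 and 85 counts in controls and 35, 45 and 48 in knockouts. Control replicate 2 was far above the rest; with it the log2 fold change was -3.80 ± 1.17, and without it -0.68. Without control replicate 3 instead, it was -4.32 (adjusted p = 0.0475, edgeR). In DESeq2, Cyp2c39 had no adjusted p. The table gives Cyp2c39 an extent on the plus strand that contains Cyp2c38 on the minus strand. Whether the counting used strand is not stated in what was used here. Of their windows, 11.4% (Cyp2c39) and 7.45% (Cyp2c38) occur in other members, so most of their length could be told apart by sequence. Whether reads were assigned to the wrong one of these genes was not tested. The high library of Cyp2c39 was the lowest control for Cyp2c38.

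Cyp2c37, Cyp2c54 and Cyp2c50 lie side by side and varied alike, an observation made after their values were seen. Control replicate 1 was highest and knockout replicate 1 lowest for all of them. Cyp2c50 had 1181, 634 and 835 CPM in controls and 481, 727 and 772 CPM in knockouts (log2 fold change of -0.42 ± 0.25). For Cyp2c54 the groups did not overlap, at 278 to 444 CPM in controls and 126 to 264 CPM in knockouts, and the interval ran from -1.28 to 0.04. Cyp2c37, at 244 to 540 CPM against 163 to 288 CPM, overlapped. Between 25.7% and 30.7% of the windows of these copies occur in another member, and their sum of 2165, 1158 and 1385 CPM in controls overlapped with 770, 1263 and 1321 CPM in knockouts. Control replicate 1 and knockout replicate 1 each moved these values: the log2 fold change of Cyp2c37 went from -0.55 to -0.10 and -0.33 without them, that of Cyp2c54 from -0.62 to -0.36 and -0.34, and that of Cyp2c50 from -0.42 to -0.15 and -0.24.

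The abundant Cyp2c29 (NCBI Gene 13095, 39287044 to 39330713) had 1295, 1734 and 1474 CPM in controls and 1181, 1290 and 1697 CPM in knockouts. Its log2 fold change of -0.11 ± 0.19 had an interval of -0.53 to 0.31. Cyp2c23 was at 444 to 562 CPM in controls and 401 to 523 CPM in knockouts. The copies Cyp2c40, Cyp2c67, Cyp2c68 and Cyp2c69, described after their values were seen, share between 43.3% and 72.1% of their windows with other members. Cyp2c40 had a log2 fold change of 1.01 ± 0.40 and Cyp2c69 of 0.78 ± 0.43, and in both control replicate 3 lay within or above the range of the knockouts. Without that library they were 1.68 (adjusted p = 0.0172, edgeR) and 1.60 (0.0183). Without control replicate 2, the lowest control of both, they were 0.66 (adjusted p = 0.42, edgeR) and 0.39 (0.608). Summed over the 4 copies, the level was 1010, 676 and 651 CPM in controls and 709 to 754 CPM in knockouts, a ratio of 0.932. Cyp2c55, also chosen after its values were seen, was low, at 1.81 to 3.69 CPM in controls and 3.76 to 4.15 CPM in knockouts. Leaving out control replicate 1 took its log2 fold change from 0.66 ± 0.27 to 1.03 (adjusted p = 0.0423, edgeR). With any other single library left out, the log2 fold change was 0.47 to 0.69 (adjusted p of 0.282 to 0.495, edgeR). Cyp2c65 and Cyp2c66 had 4 and 1 counts in all libraries together and were not tested.

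Subfamily 2d lies on the chromosome that carries Selenoo, in a cluster from 82370527 to 82794452 that ends 6.29 Mb before it. Of its 8 members 7 were tested, and none passed. The sums were 3845, 4087 and 3443 CPM in controls and 3845, 4245 and 3942 CPM in knockouts, which overlap. Cyp2d9 (NCBI Gene 13105, 82452377 to 82456827) had 1161, 1257 and 852 CPM in controls and 1437, 1705 and 1393 CPM in knockouts. It was higher in each knockout than in any control, by a log2 fold change of 0.47 ± 0.18 (interval 0.06 to 0.88, adjusted p = 0.212, edgeR). Cyp2d10 pointed the other way (-0.27 ± 0.16), at 861 to 1177 CPM in controls and 846 to 888 CPM in knockouts. Cyp2d9 and Cyp2d10 share 27.8% and 37.1% of their windows with other members.

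Cyp2d26 was close to equal, at 1266 ± 146 CPM (SD, n = 3) in controls and 1247 ± 52.3 CPM in knockouts, with an interval of -0.35 to 0.31 for its log2 fold change. Cyp2d22 (interval -0.36 to 0.23) and Cyp2d40 (interval -0.21 to 0.37) were bounded as narrowly. The low Cyp2d12 and Cyp2d34 had intervals from -0.36 to 0.53 and from -0.89 to 0.49. Cyp2d11, with 4 to 22 counts per library, was not tested.

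In subfamily 2j, whose enzymes form epoxides from arachidonic acid, Cyp2j5 was the main member. It had 479, 442 and 528 CPM in controls and 416, 526 and 527 CPM in knockouts, and its log2 fold change of 0.02 ± 0.15 had an interval of -0.33 to 0.36. The sign of so small a value changed with the setting, to -0.02 with upper-quartile scaling. Cyp2j6, at 50.9 to 83.7 CPM in controls and 69.6 to 116 CPM in knockouts, and Cyp2j9, at 4.36 to 10.2 and 6.63 to 12.7 CPM, overlapped between groups (log2 fold changes of 0.45 ± 0.23 and 0.57 ± 0.32). Leaving out 1 library took Cyp2j6 down to 0.21 (knockout replicate 2) or up to 0.68 (control replicate 1), and Cyp2j9 down to 0.33 (control replicate 3) or up to 0.97 (control replicate 1). Cyp2j8 had 11 counts in all and was not tested.

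Cyp2r1, the vitamin D hydroxylase of liver, had 6.31, 4.75 and 5.96 CPM in controls and 7.20, 8.46 and 7.79 CPM in knockouts. The groups did not overlap (log2 fold change of 0.46 ± 0.17, adjusted p = 0.19, edgeR). Cyp2u1, a fatty acid hydroxylase, had 34, 63 and 31 counts in controls and 103, 78 and 68 in knockouts, again without overlap (0.95 ± 0.27, adjusted p = 0.114). Its coordinates in the table mix a scaffold with a chromosome and are not given here. Cyp2ab1 had at most 2 counts per library and was not tested.

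In subfamily 3a, 4 of 9 members were tested. Cyp3a11 (NCBI Gene 13112, chromosome 5, 145854607 to 145879854) made up most of the summed level. It had 3119, 2149 and 1977 CPM in controls and 1507, 2700 and 2261 CPM in knockouts, with control replicate 1 highest and knockout replicate 1 lowest. The log2 fold change was -0.16 ± 0.25 (interval -0.72 to 0.39), and it was 0.06 without control replicate 1 and 0.04 without knockout replicate 1. The gene of PXR itself, Nr1i2, named after its values were seen, had 87.8 to 91.5 CPM in controls and 115 to 116 CPM in knockouts (0.35 ± 0.12, adjusted p = 0.158, edgeR).

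The other tested 3a members, Cyp3a59, Cyp3a25 and Cyp3a13, were each higher in every knockout than in any control, as were 13.3% of all tested genes. Cyp3a59 (NCBI Gene 100041449, 146079208 to 146114978) had 20.1, 14.0 and 19.7 CPM in controls and 28.5, 32.0 and 28.6 CPM in knockouts. Its log2 fold change was 0.73 ± 0.16 (interval 0.37 to 1.10), and its adjusted p was nearest to the threshold of all members. In edgeR's test that value was 0.0606 with all libraries, 0.0369 without control replicate 1 and 0.0366 without control replicate 3. With any other single library left out, edgeR's adjusted p was 0.164 to 0.24, and it was 0.145 with the replicate block. Cyp3a25 (NCBI Gene 56388, 145977192 to 146009644) had 313, 226 and 246 CPM in controls and 372, 363 and 360 CPM in knockouts (0.48 ± 0.15, adjusted p = 0.151, edgeR). Without control replicate 1 its adjusted p was 0.0337 in edgeR's test, and 0.142 to 0.378 with any other single library left out. These genes share 26.3% and 28.0% of their windows with other members, and the letters of their start regions are shown above. Together they had 333, 240 and 265 CPM in controls and 401, 395 and 389 CPM in knockouts.

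Cyp3a13 (NCBI Gene 13113, 137892933 to 137925610), which lies apart from the other 3a genes, had 97.8, 96.9 and 106 CPM in controls and 131, 142 and 158 CPM in knockouts. The log2 fold change was 0.52 ± 0.13 (interval 0.22 to 0.81), adjusted p = 0.0888 (edgeR) and 0.00713 (DESeq2). With 1 library left out, edgeR's adjusted p was 0.0565 to 0.301. The copies Cyp3a16, Cyp3a41a, Cyp3a41b, Cyp3a44 and Cyp3a57 had between 0 and 10 counts in any library and were not tested. Cyp3a41a and Cyp3a41b share over 90% of their windows and could not be told apart by most reads.

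Grouped by what is known of them, 7 of 13 listed female-biased members were tested. None passed, 4 had a negative log2 fold change and 3 a positive one, and their median was -0.824. The values ran from -3.80 (Cyp2c39) to 2.75 (Cyp2a4). Those of Cyp2c39, Cyp2b9 and Cyp2a4 each shrank when 1 library was left out, as given above. The listed male-biased Cyp2d9 had 0.47. Of 8 tested sex-dependent regulators none passed, and their median ratio of highest to lowest library was 2.87 in controls and 1.67 in knockouts. The listed pericentral members (8 tested, Cyp2e1, Cyp1a2, Cyp2a5, Cyp2c29, Cyp2c37, Cyp2c50, Cyp2c54 and Cyp3a11) had a median of -0.138, with 3 positive and 5 negative, and the periportal Cyp2f2 had 0.66. Spread within controls was wider than within knockouts: the median ratio of the highest to the lowest library was 1.65 in controls and 1.35 in knockouts for the tested members, and 1.39 and 1.22 over all tested genes. A range over 3-fold was found among controls for 7 members and among knockouts for 3, where 3.11% and 1.77% of all tested genes had one.

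The partners of these enzymes were not called. Of 16 genes of electron transfer and haem supply, none passed, 2 were higher and 1 lower at an unadjusted p under 0.05, and the median log2 fold change was -0.009. Por, named after its values were seen, is the oxidoreductase that supplies electrons to all of these enzymes; it had 633, 606 and 1015 CPM in controls and 1175, 1226 and 1186 CPM in knockouts (0.67 ± 0.21, adjusted p = 0.132, edgeR). For Por, control replicate 3 was the control nearest to the knockouts, as for Cyp2a5 and Cyp2a12. For Cyp2f2 and Cyp2d9 it was the control farthest from them. Among 26 tested transcription factors and coregulators of P450 genes 1 passed, where 1.49% of all tested genes did. It was the fasting coactivator Ppargc1a, at 4.73 ± 0.662 CPM in controls and 10.8 ± 0.937 CPM in knockouts (SD, n = 3). Its log2 fold change was 1.18 ± 0.16 (SE, adjusted p = 0.0131, edgeR). In bulk tissue, a change in the number of cells of a type and a change in RNA per cell cannot be told apart.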

How the data were processed

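Bulk liver RNA of 3 control and 3 knockout samples was used. GRCm38, HISAT2, Bowtie2 and RSEM 1.3.1 are named, per the submitters' processing notes, with no role or order. Not given in the sources used here: annotation and strandedness of counting. The authors deposited, per the file headers, estimated counts, FPKM and TPM per gene and library, with their own means and a DESeq2 comparison (log2 fold change, p-value and q-value). Table columns were matched to samples by group and number, and name the controls WT. Between 4.55% and 4.98% of the deposited counts differed from a whole number by over 0.01; counts were rounded.

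Genes were filtered with edgeR's filterByExpr (minimum count 10, here 0.549 CPM in 3 libraries) and scaled with TMM factors, and all were fitted together with genotype as the only term (edgeR 4.0.16 quasi-likelihood F test, R 4.3.3, Benjamini-Hochberg adjustment at 0.05). Standard errors come from the F statistic. CPM values are scaled by the TMM factors. Totals of 15550287 to 18680196 counts per library set the limit for an undetected gene at 3 counts (0.155 to 0.201 CPM by library); PCR reads are not independent molecules, so this covers counting error only. The closest pair of libraries had a chi-square per degree of freedom of 19.8, so all were kept as separate samples. On data simulated for this comparison, 66.0% of genes changed by 1 log2 unit and 99.0% of those changed by 2 were recovered among 12060 genes. Of the calls, 7.30% were false. The changed genes were drawn at random from all tested genes, so these rates are not those of the P450 members. The members had a larger median standard error (0.248 against 0.180) and a median change of 0.518 in size.

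Alternatives were DESeq2 1.42.0, limma 3.58.1 (voom, or log2 of FPKM plus 1 or 0.1), other scalings and filters, a replicate block, removal of the length trend and leaving out each library. Members named in full were the 2 with the highest mean FPKM and the 2 with the smallest p per subfamily, and 7 textbook genes; others are said to be chosen after seeing their values or summarized. Shared sequence was counted as 50-base windows of the longest coding GENCODE transcript, and start regions were aligned with Biopython 1.88. Members and lists were chosen with earlier results of these data known.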

Additional observations from a re-analysis of the deposited data

How the results depend on the processing

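The number of called members was 0 of 41 with edgeR's quasi-likelihood test, and 0 as well with DESeq2 size factors, upper-quartile scaling, the filter of 1 CPM in 3 libraries, the replicate block, limma-voom and limma on log2 of FPKM plus 1 or 0.1. It was 3 without the low-count filter, 2 with the length trend removed, 5 at an adjusted p of 0.1 and 7 with DESeq2's Wald test. Leaving out a library gave 0 to 7. Over all genes the 181 calls became 330 without the filter, 634 with DESeq2, 110 on log2(FPKM + 1), 513 at an adjusted p of 0.1 and 43 to 668 without a library. With the replicate block there were 87. The numbers do not pair the libraries: deviations of same-numbered libraries correlated at -0.16, -0.079 and -0.076, and no library correlated best with its own number. The cause of these shifts was not tested.

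Of 413 fold changes recomputed for 26 named and tested members, 379 kept their direction and their side of the threshold, 19 passed it and 15 changed sign. The 26 do not include members singled out after their values were seen, such as Cyp2a4, Cyp2c39, Cyp2c40, Cyp2c55 and Cyp2c69. Of those, Cyp2c39, Cyp2c40, Cyp2c55 and Cyp2c69 passed the threshold when 1 control library was left out, as given above. Leaving out 1 library at a time, the log2 fold change ranged from -0.28 to 0.00 for Cyp2c29, -0.11 to 0.03 for Cyp2d26, -0.04 to 0.12 for Cyp2j5, -0.60 to 0.67 for Cyp2s1 and -0.36 to 0.06 for Cyp3a11. Sign changes were those of Cyp2c29 (0.00 without control replicate 2), Cyp2d26 (0.03 and 0.02 without control replicates 2 and 3, 0.01 without knockout replicate 1, 0.04 with the length trend removed), Cyp2j5 (-0.02 with upper-quartile scaling, -0.06 on log2 FPKM, -0.04 without control replicate 2 or knockout replicates 2 or 3), Cyp2s1 (0.67 without control replicate 2, 0.23 without knockout replicate 2) and Cyp3a11 (0.06 and 0.04 without control and knockout replicate 1). The log2 ratio of the summed level of subfamily 2b was -2.61, and -1.04 without control replicate 3.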
